A study of Mus musculus with 10 samples.

Results

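Lysosomal hydrolases and membrane proteins are represented here by 36 genes, taken by symbol from the 36144 rows of a TPM table (TPM is a transcript level corrected for transcript length and scaled to the same library total). All 36 symbols were found, as 9 proteases, 10 glycosidases, 5 sulfatases, 5 lipid hydrolases and activators, 5 membrane proteins and 2 subunits of the proton pump. The RNA came from cultures labelled as primary smooth muscle cells grown from the aortic media of male mice aged 8 weeks. The cultures were used between passages 2 and 7. The 3 wild-type libraries, each from its own mouse, were compared with 3 from mice labelled as smooth muscle-specific Adamts7 overexpression with Myh11-Cre-ERT2, a tamoxifen-dependent Cre driven by a smooth muscle myosin promoter. No Cre driver is named for the wild-type mice, and neither tamoxifen treatment nor the passage of each library is stated in the sources used. The comparison therefore holds transgene, driver and any such difference together.

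Lysosomes are acidic organelles in which hydrolases break down proteins, glycans and lipids delivered by endocytosis and autophagy. The vacuolar proton pump acidifies them, heavily glycosylated membrane proteins line them, and most soluble enzymes reach them by the mannose 6-phosphate route. Many lysosomal genes are known targets of the transcription factor TFEB and its relatives TFE3, TFEC and MITF, which bind the CLEAR element, a form of the E-box. In atherosclerosis, macrophages and smooth muscle cells that take up lipoprotein hydrolyse its cholesterol esters in the lysosome.

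Promoter letters were read from RefSeq windows of GRCm38.p6 that run from 250 bases before to 50 bases after each annotated start, and 32 of the 36 genes matched. Ctsb, Galns, Asah1 and Atp6v0d2 had no entry in the table. The CLEAR core TCACGTGA and the E-box CACGTG, which lies inside it, read the same on both strands. TCACGTGA was present for 5 of the 32 genes (15.6%), namely Atp6v1a, Ctsa, Ctsd, Gla and Mcoln1, against 0.974% of all 32851 windows and 2.19% of the 9906 tested genes with a window. CACGTG was present for 12 of the 32 (37.5%), against 7.15% of all windows and 11.7% of those tested genes. Of members with a window, 4 were higher and 3 lower at an unadjusted p under 0.05 in the limma fit described below. TCACGTGA was present for 0 of those 4 and 0 of those 3, and CACGTG for 1 of the 4 (Lgmn) and 1 of the 3 (Arsa). The stretches below show the letters for the most abundant member (Ctsd), for a calcium channel whose libraries lay lower in overexpression (Mcoln1), for the glycosidase with a pair of cores (Gla), for the membrane protein with 4 E-boxes (Lamp1) and for the member with the smallest p (Arsa). They lie at chr7:142387889-142387956 (minus strand), chr8:3500443-3500510 (plus), chrX:134601163-134601255 (minus), chr8:13159070-13159160 (plus) and chr15:89477425-89477470 (minus), all upstream of the start. Capitals mark TCACGTGA or, where the flanking letters differ, CACGTG.
Ctsd: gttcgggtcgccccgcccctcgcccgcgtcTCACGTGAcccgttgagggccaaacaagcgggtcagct
Mcoln1: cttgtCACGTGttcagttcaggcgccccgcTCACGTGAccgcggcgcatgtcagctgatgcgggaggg
Gla: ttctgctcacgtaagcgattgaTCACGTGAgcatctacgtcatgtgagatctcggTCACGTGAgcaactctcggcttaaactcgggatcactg
Lamp1: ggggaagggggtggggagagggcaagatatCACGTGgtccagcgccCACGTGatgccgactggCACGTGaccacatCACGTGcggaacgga
Arsa: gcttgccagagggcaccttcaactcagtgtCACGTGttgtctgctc
A match is a description of the letters and no sign of binding.

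Adamts7, the gene overexpressed, was at 6.08 to 8.20 TPM in the wild-type libraries and at 75.8 to 98.7 TPM in the overexpression libraries. On the first principal component (51.4% of the variance), overexpression replicate 3 had a score of -0.67, between wild type (-20.3 to -16.8) and the other overexpression libraries (18.6 and 39.4), so results that rest on it are given with and without it. Of 22 macrophage and leukocyte markers, 21 were tested, and for all 21 each overexpression library lay above each wild-type library. No marker of that list was at 0 in any library, and their summed level was 433 to 666 TPM in wild type and 3572, 2885 and 1108 TPM in overexpression replicates 1, 2 and 3. The 16 endothelial markers, none at 0 in any library, summed to 6679 to 7238 TPM in wild type and to 4665, 3256 and 5647 TPM, and the 14 smooth muscle markers to 4317 to 4467 TPM and to 5563, 6894 and 5049 TPM. The endothelial list summed above the smooth muscle list in the wild-type cultures, which are labelled as smooth muscle cells. Such sums depend on which abundant genes a list holds and give no ratio of cell types. Of 10 fibroblast markers, Lum, Dpt and Scara5 were too low to be tested, and the list summed to 1001 to 1165 TPM in wild type and 858, 647 and 1002 TPM in overexpression. Cd34, which endothelial cells also express, made up 83.8% to 93.1% of that sum, and the other 9 summed to 80.8, 89.7 and 98.2 TPM and to 106, 105 and 73.8 TPM. In bulk RNA, more cells of a type and more RNA per cell cannot be told apart. Between 12.0% and 14.3% of the TPM came from mitochondrially encoded genes, most in wild-type replicate 1, and sequencing depth is unknown because TPM keep no record of read number.

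As a whole the 36 genes took overlapping shares of the RNA in the 2 genotypes, while single members lay apart in both directions. They took 0.883%, 0.963% and 0.932% of the TPM in wild-type replicates 1 to 3 and 1.01%, 0.909% and 0.934% in overexpression replicates 1 to 3, so the groups overlap. Their log2 fold changes (overexpression over wild type, on log2(TPM + 1)) had a median of 0.00040, with 18 higher and 18 lower, beside a median of -0.0090 over the 13131 genes tested. No member passed limma's threshold of an adjusted p under 0.05, and the smallest adjusted p was 0.128. Of all genes 0.0152% passed. At an unadjusted p under 0.05 stood 10 members (27.8%), 7 of them higher (19.4%) and 3 lower (8.33%), against 19.5% of all genes tested, 10.6% higher and 8.94% lower. With quantile normalization or median-of-ratios scaling the split was 7 higher and 5 lower. Over all 13131 genes tested it shifted as well, from 1386 higher and 1174 lower. It was 1288 and 1486 with quantile normalization, and 1428 and 1300 with median-of-ratios scaling. The genotypes did not overlap for 13 members (36.1%), 8 higher and 5 lower, against 27.2% of all genes, 14.3% higher and 12.9% lower. No test of the list as a whole was made.

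**Figure D1:**
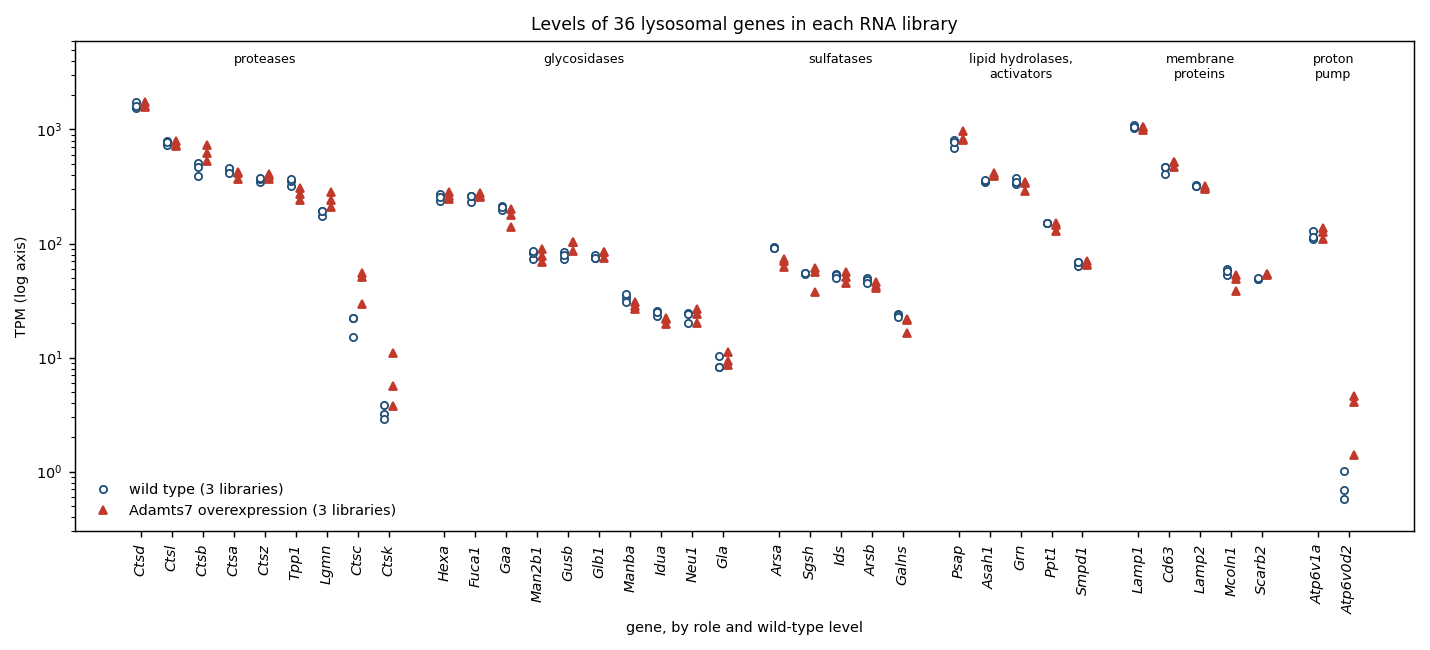
TPM (log axis) of the 36 genes in each of the 6 RNA libraries, by role and wild-type level, with open circles for wild type and triangles for overexpression. Levels span from Atp6v0d2, at 0.58 to 4.60 TPM, to Ctsd, at 1539 to 1759 TPM, and symbols of the 2 genotypes sit apart most visibly for Ctsc and Atp6v0d2.

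By wild-type mean, 18 of the 36 were at or above 100 TPM, 12 ranked among the top 500 of the 36144 genes and 3 were under 10 TPM (Gla, Ctsk and Atp6v0d2). The spread between mice was wider in overexpression than in wild type for 29 of the 36 (80.6%), with median coefficients of variation of 8.99% and 5.78%. Over all genes tested the same held for 63.1%, with medians of 10.1% and 7.54%.

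Among the proteases, Ctsc, Ctsk, Ctsb and Lgmn had higher means in overexpression cultures, Tpp1 had a lower one, and the most abundant, cathepsins D and L, did not differ beyond the spread. None of the 9 passed limma's adjusted threshold. Ctsd, the aspartic protease cathepsin D (ENSMUSG00000007891.16, chromosome 7 from 142375910 to 142387827 in GRCm38.p6, the mm10 build), was at 1539, 1758 and 1603 TPM in wild type and at 1759, 1559 and 1593 TPM in overexpression. The groups overlap, and the 95% interval of the log2 fold change ran from -0.18 to 0.19. Ctsl, the cysteine protease cathepsin L, was at 788, 732 and 777 TPM and at 792, 734 and 710 TPM (interval -0.19 to 0.11). For neither of these cathepsins did the libraries of a genotype stand apart.

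Ctsc encodes cathepsin C, a dipeptidyl peptidase that activates the granule proteases of immune cells (ENSMUSG00000030560.17, chromosome 7 from 88278024 to 88315861). It was at 15.3, 22.4 and 22.2 TPM in wild type and at 55.1, 50.5 and 29.7 TPM in overexpression. Every overexpression library lay above every wild-type library, with replicate 3 nearest to them. The means were 20.0 ± 4.03 and 45.1 ± 13.5 TPM (SD, n = 3 each). On the log2 scale Ctsc was higher by 1.11 ± 0.25 (SE), with a limma adjusted p of 0.131.

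Lgmn, the asparaginyl endopeptidase legumain that processes other cathepsins (chromosome 12 from 102394082 to 102439728), was at 174, 193 and 192 TPM in wild type and at 282, 243 and 210 TPM in overexpression. Again the groups do not overlap and replicate 3 was the lowest of its group (log2 fold change 0.38 ± 0.11 SE, limma adjusted p = 0.149). Tpp1, a tripeptidyl peptidase, ran the other way, at 322, 351 and 369 TPM in wild type and at 275, 239 and 309 TPM in overexpression, again without overlap (-0.35 ± 0.10 SE, limma adjusted p = 0.154).

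Ctsb and Ctsk were singled out after their values were seen. Ctsb, the cysteine protease cathepsin B, was at 393, 507 and 472 TPM and at 729, 618 and 525 TPM, all higher (0.44 ± 0.14 SE, limma adjusted p = 0.168). Ctsk, the collagen- and elastin-degrading cathepsin K, was low, at 3.82, 3.18 and 2.90 TPM and at 5.67, 10.9 and 3.74 TPM, so that overexpression replicate 3 fell inside the wild-type range. Its log2 fold change of 0.75 was 0.39 without overexpression replicate 2. The 2 remaining proteases, Ctsa and Ctsz, had log2 fold changes of -0.14 (-0.071 without overexpression replicate 2) and 0.088 (0.049 without wild-type replicate 1 and 0.051 without overexpression replicate 1) and overlapping libraries. In all, 6 of the 9 proteases were higher and 3 lower, with 4 higher and 1 lower at an unadjusted p under 0.05 (55.6%), beside 19.5% of all genes tested.

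Glycosidases, which trim sugars from glycoproteins, glycolipids and glycosaminoglycans, had log2 fold changes with a median of 0.042 over the 10 genes, and none passed limma's adjusted threshold. That median was -0.030 without wild-type replicate 1 and -0.023 without overexpression replicate 1, each with 4 higher and 6 lower. The most abundant were Hexa, the alpha chain of the beta-hexosaminidase that degrades gangliosides, at 237, 272 and 255 TPM in wild type and 282, 245 and 261 TPM in overexpression, and Fuca1, which removes fucose, at 233, 260 and 263 TPM and at 278, 256 and 263 TPM. Both overlap, with intervals of the log2 fold change from -0.14 to 0.23 and from -0.086 to 0.24.

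Gusb, the beta-glucuronidase (chromosome 5 from 129989011 to 130003049), was the glycosidase with the smallest p, at 72.7, 84.7 and 78.6 TPM in wild type and at 104, 102 and 86.8 TPM in overexpression. All overexpression libraries lay higher (0.31 ± 0.093 SE, limma adjusted p = 0.158). Idua, the iduronidase of heparan and dermatan sulfate breakdown, was at 23.1, 25.7 and 25.3 TPM and at 22.1, 19.9 and 21.7 TPM, all lower (-0.21 ± 0.081 SE, limma adjusted p = 0.223). Manba, the beta-mannosidase, was at 33.0, 35.9 and 30.5 TPM and at 26.4, 28.3 and 30.8 TPM, with overexpression replicate 3 inside the wild-type range. The other 5 (the glycogen-degrading Gaa, Gla, Glb1, Neu1 and Man2b1) had log2 fold changes from -0.26 for Gaa to 0.099 for Gla, and the libraries of each overlap between genotypes. Gaa was at -0.12 without overexpression replicate 2, and Gla ran from 0.0069 without overexpression replicate 1 to 0.20 without wild-type replicate 3. By p, 1 of the 10 glycosidases was higher and 1 lower at an unadjusted p under 0.05, a share close to the 19.5% of all genes tested.

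Sulfatases, which remove sulfate groups from glycosaminoglycans and sulfatide, were the group in which all 5 members had lower means in overexpression, with a median log2 fold change of -0.15. All 5 were also lower under quantile normalization and median-of-ratios scaling, whereas Sgsh was higher (0.11) with libraries weighted by quality. Arsa, the arylsulfatase of sulfatide (ENSMUSG00000022620.14, chromosome 15 from 89472476 to 89477424), was at 93.7, 91.6 and 91.6 TPM in wild type and at 69.8, 62.0 and 73.4 TPM in overexpression. The wild-type libraries lay close together and well above the others. The means were 92.3 ± 1.24 and 68.4 ± 5.84 TPM (SD, n = 3 each). The log2 fold change was -0.43 ± 0.075 (SE), and the limma adjusted p of 0.128 was the smallest of the 36.

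Galns, the sulfatase of keratan sulfate, was at 24.4, 23.8 and 22.8 TPM in wild type and at 22.0, 16.4 and 21.6 TPM in overexpression. Its groups do not overlap, but 2 overexpression libraries lay just under wild type and replicate 2 well below. Arsb, which acts on dermatan and chondroitin sulfate, was at 49.7, 48.2 and 45.3 TPM and at 42.3, 40.7 and 46.2 TPM, with replicate 3 inside the wild-type range. The heparan sulfate enzymes had overexpression libraries on both sides of wild type. Ids was at 53.6, 53.1 and 49.7 TPM and at 51.1, 45.0 and 56.6 TPM, and Sgsh at 53.8, 55.1 and 55.4 TPM and at 61.1, 37.8 and 56.2 TPM. For Sgsh overexpression replicate 2 was the one library below wild type, and the log2 fold change of -0.11 was 0.096 without it. For Ids the value of -0.039 was 0.045 without that library.

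Among lipid hydrolases and their helpers, Asah1 and Psap stood higher in every overexpression library. Asah1, the acid ceramidase (chromosome 8 from 41340646 to 41397644), was at 350, 356 and 360 TPM in wild type and at 418, 399 and 389 TPM in overexpression. Its groups are tight and apart (0.18 ± 0.054 SE, limma adjusted p = 0.162), a ratio of means of 1.13. Psap, the precursor of the saposins that present sphingolipids to their hydrolases, was at 693, 803 and 772 TPM and at 977, 833 and 809 TPM. Here the highest wild-type and the lowest overexpression library nearly touch (0.21 ± 0.093 SE, limma adjusted p = 0.275), and the log2 fold change was 0.12 without overexpression replicate 1.

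The acid sphingomyelinase gene Smpd1 overlapped between genotypes, at 64.0, 69.3 and 68.8 TPM in wild type and 65.7, 65.3 and 70.7 TPM in overexpression (interval of the log2 fold change from -0.16 to 0.15). Ppt1, a thioesterase that removes palmitate from proteins, was at 152, 152 and 150 TPM and at 145, 129 and 151 TPM. Grn, the progranulin precursor, was at 332, 373 and 349 TPM and at 345, 289 and 339 TPM. Both overlap, with replicate 2 the lowest overexpression library of each.

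Among the membrane proteins the libraries of the abundant Lamp1 and Lamp2 overlapped between genotypes, Scarb2 was slightly higher and the calcium channel Mcoln1 lower. None passed limma's adjusted threshold, and 0 of 5 had an unadjusted p under 0.05, beside 19.5% of all genes. Lamp1, a major glycoprotein of the lysosomal membrane (ENSMUSG00000031447.7, chromosome 8 from 13159161 to 13175338), was at 1036, 1088 and 1056 TPM in wild type and at 1044, 996 and 1061 TPM in overexpression. Lamp2, its relative needed for autophagy, was at 318, 329 and 320 TPM and at 310, 303 and 322 TPM. Both overlap, and the 95% intervals of the log2 fold change ran from -0.17 to 0.096 for Lamp1 and from -0.17 to 0.076 for Lamp2. Cd63, a tetraspanin of late endosomes and exosomes, was at 404, 468 and 469 TPM and at 517, 520 and 466 TPM, with replicate 3 inside the wild-type range (0.17 ± 0.081 SE, limma adjusted p = 0.307), and a log2 fold change of 0.096 without wild-type replicate 1.

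Scarb2, which carries glucocerebrosidase to the lysosome, was at 48.7, 49.0 and 49.6 TPM in wild type and at 53.9, 53.3 and 54.1 TPM in overexpression. This small separation, a ratio of means of 1.10, was the one with the least spread in both groups (0.13 ± 0.056 SE, limma adjusted p = 0.264). Mcoln1, the lysosomal calcium release channel whose promoter letters are printed above, was at 52.7, 60.2 and 56.9 TPM and at 49.2, 38.4 and 52.6 TPM. All overexpression libraries lay lower, replicate 3 by a narrow margin (-0.28 ± 0.12 SE, limma adjusted p = 0.258), and the log2 fold change was -0.15 without replicate 2.

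The 2 proton pump subunits differed in scale. Atp6v1a, the catalytic subunit, was at 110, 129 and 115 TPM in wild type and at 138, 111 and 126 TPM in overexpression, and its groups overlap. Atp6v0d2, a subunit of the membrane sector abundant in macrophages and osteoclasts (ENSMUSG00000028238.6, chromosome 4 from 19876838 to 19922566), was at 0.58, 1.02 and 0.70 TPM and at 4.60, 4.09 and 1.40 TPM. Every overexpression library lay higher, with replicate 3 close to wild type. The ratio of means was 4.39, and the log2 fold change was 1.22 ± 0.33 (SE) on log2(TPM + 1) and 1.87 with a pseudocount of 0.1 (limma adjusted p = 0.145 with the pseudocount of 1). Its wild-type mean of 0.77 TPM is below the level of 1 TPM that a gene needed on average to be tested, so it entered through the overexpression libraries. Without it the median of the other 35 members was -0.0027, with 6 higher and 3 lower at an unadjusted p under 0.05 (25.7%), and 12 of the 35 did not overlap (34.3%).

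**Figure D2:**
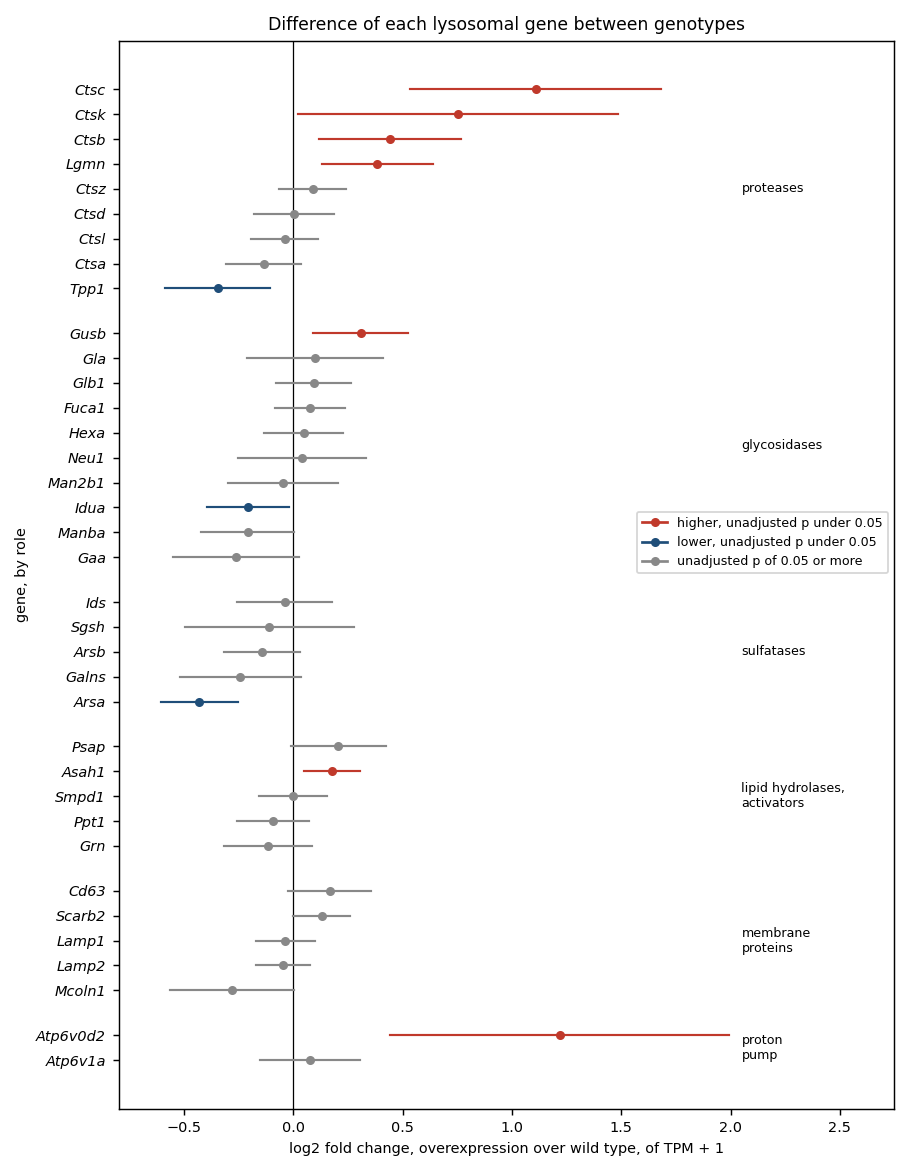
Log2 fold change of each gene with its 95% interval from limma, by role, in red and blue where the unadjusted p was under 0.05 (higher and lower) and grey otherwise. The widest intervals belong to Atp6v0d2, Ctsk and Ctsc, and no gene passed adjustment over the 13131 genes tested (smallest adjusted p 0.128).

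Members that lay higher and members that lay lower were ordered differently across the overexpression libraries. Of the 8 members whose overexpression libraries all lay higher (Ctsb, Ctsc, Lgmn, Gusb, Asah1, Psap, Scarb2 and Atp6v0d2), replicate 1 was the highest for 7 and replicate 3 the lowest for 7, the exception being Scarb2. Of the 5 whose libraries all lay lower (Tpp1, Idua, Arsa, Galns and Mcoln1), replicate 2 was the lowest for 5. These orders were not counted over all genes. On the first principal component of all genes tested, replicate 2 lay farthest from wild type (39.4) and replicate 3 nearest (-0.67). The macrophage list stood at a median of 2.22, 2.00 and 0.71 above the wild-type mean in overexpression replicates 1, 2 and 3 (log2 scale), the smooth muscle list at 0.54, 0.53 and 0.20, and the endothelial list at -0.45, -0.96 and -0.27. The part of these other transcripts in the members' values was not tested.

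**Figure D3:**
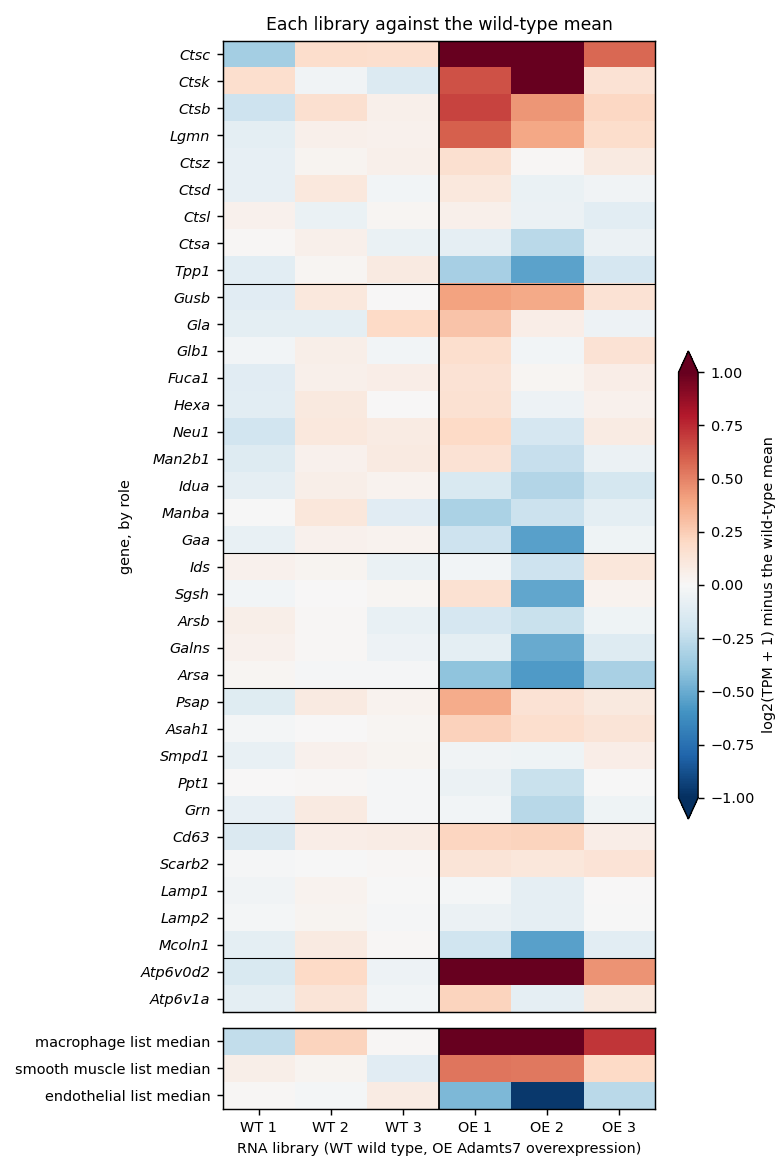
Difference of each library from the wild-type mean, on log2(TPM + 1), for the 36 genes by role and for the medians of 3 marker lists, with colours saturating at 1 in either direction. Ctsc, Ctsb, Lgmn and Atp6v0d2 are red in overexpression replicates 1 and 2 and paler in replicate 3, while Arsa, Tpp1, Gaa and Mcoln1 are bluest in replicate 2.

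Overexpression replicate 3 was singled out because it lay nearest to wild type in these same data. The fit without it therefore describes how far results depend on that library and is no independent test. Without overexpression replicate 3, 6 members (16.7%) passed limma's adjusted threshold, against 6.3% of all genes tested in that fit. Leaving aside Atp6v0d2, which was tested only because of its overexpression level, 5 of 35 passed (14.3%). Of the 6, 4 were higher, against 3.99% of all genes, and 2 lower, against 2.31%. At an unadjusted p under 0.05 stood 15 (41.7%), against 25.7%. Ctsc rose by a log2 fold change of 1.38 (limma adjusted p = 0.00773), Atp6v0d2 by 1.60 (0.00797), Lgmn by 0.49 (0.0273) and Gusb by 0.39 (0.0432). Arsa fell by 0.48 (limma adjusted p = 0.0183) and Tpp1 fell by 0.44 (0.0424). Quality weights were estimated from these same libraries, so the fit that uses them is no separate support. With all libraries weighted by quality, 12 members passed (33.3%), 8 higher and 4 lower. Of all genes 20.8% passed in that fit, 11.4% higher and 9.42% lower. Leaving aside Atp6v0d2, 11 of 35 members passed (31.4%). At an unadjusted p under 0.05 stood 20 of the 36 (55.6%), against 37.5% of all genes. Over all alternatives the limma adjusted p ranged from 0.00599 to 0.354 for Ctsc and from 0.00573 to 0.354 for Arsa. None of the 36 passed when any other single library was left out.

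The median log2 fold changes were 0.022 for other hydrolases, 0.00074 for other membrane proteins, 0.030 for other pump subunits, -0.033 for sorting genes, 0.023 for the TFEB family and mTORC1, and -0.017 for autophagy genes. The highest members reached 1.94 among other hydrolases, 1.40 among membrane proteins and 1.26 among sorting genes, whereas pump subunits ran from -0.38 to 0.25 and autophagy genes from -0.45 to 0.18. Their counts below stand beside the 19.5% of all genes at an unadjusted p under 0.05. Among 29 other hydrolases none passed limma's adjusted threshold, and 2 were higher and 1 lower at an unadjusted p under 0.05. Ctss, the cysteine protease cathepsin S of antigen-presenting cells, was at 34.5, 47.1 and 43.6 TPM in wild type and at 283, 185 and 80.4 TPM in overexpression, a log2 fold change of 1.94 ± 0.41 (SE). Lipa, the acid lipase that hydrolyses cholesterol esters, was at 92.1, 98.1 and 98.6 TPM and at 172, 134 and 118 TPM. Both follow the order of libraries seen for Ctsc, with replicate 1 highest and replicate 3 lowest. The most abundant, Ctsh, was at 481 ± 32.5 and 466 ± 31.9 TPM (SD, n = 3 each).

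Of 25 other lysosomal membrane proteins tested, 5 were higher and 0 lower by unadjusted p under 0.05, and 0 passed limma's adjusted threshold. Slc11a1, a metal transporter of phagocytes, was at 8.82, 13.1 and 14.2 TPM in wild type and at 54.3, 36.6 and 17.7 TPM in overexpression, and Cd68, the macrophage relative of the Lamp proteins, at 53.8, 61.0 and 58.2 TPM and at 189, 167 and 69.9 TPM. Laptm4a, the most abundant of the list in wild type, was at 457 TPM in both groups. Gpnmb had the highest mean in overexpression. It was at 342, 370 and 333 TPM in wild type and at 684, 528 and 355 TPM in overexpression, and its libraries overlap. Among 18 other subunits of the proton pump, 1 was higher and 2 lower by unadjusted p, with 0 past limma's adjusted threshold. Atp6v0c, the most abundant, was at 618 ± 17.7 and 539 ± 22.1 TPM (SD, n = 3 each) and Atp6v1b2 at 37.7 ± 4.09 and 44.8 ± 3.62 TPM.

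Genes that deliver hydrolases or control lysosome number were also without a call by limma's adjusted threshold. In the 20 sorting genes 1 was higher and 2 lower by unadjusted p, with Lrp1, an endocytic receptor, at 50.8 ± 7.53 and 132 ± 62.0 TPM and the adaptor gene Gga1 at 39.0 ± 0.89 and 32.7 ± 1.27 TPM (SD, n = 3 each). The most abundant, the retromer gene Vps29, was at 218, 240 and 266 TPM and at 231, 250 and 226 TPM. In the 22 genes of the TFEB family and of mTORC1 at the lysosome 1 was higher and 1 lower by unadjusted p. Rheb, the small GTPase that activates mTORC1, was at 71.2, 77.8 and 78.2 TPM in wild type and at 93.8, 98.9 and 94.0 TPM in overexpression, all higher, and Tsc2, which inhibits Rheb, was at 57.5 ± 6.77 and 47.9 ± 4.40 TPM (SD, n = 3 each). Rragc, a Rag GTPase, was the most abundant, at 142, 132 and 133 TPM and at 138, 135 and 152 TPM. In the 20 autophagy genes 1 was higher and 2 lower by unadjusted p. The initiating kinase gene Ulk1 was at 47.2, 43.3 and 41.3 TPM and at 35.1, 27.3 and 33.3 TPM, all lower, and Wipi1 was at 69.5 ± 1.66 and 78.7 ± 3.09 TPM (SD, n = 3 each). The late endosomal GTPase gene Rab7, the most abundant in wild type, was at 493, 468 and 484 TPM and at 448, 410 and 473 TPM.

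The list of cathepsin inhibitors and related serpins had 3 of 6 tested genes higher at an unadjusted p under 0.05 and 0 lower. Of all genes tested 10.6% were higher and 8.94% lower by that measure. None of the list passed limma's adjusted threshold, and all 3 higher genes were serpins. One of them, the abundant Serpinh1, is a serpin that acts as a collagen chaperone and not as a protease inhibitor, and was at 613, 642 and 618 TPM in wild type and at 672, 771 and 682 TPM in overexpression. Without it the count was 2 of 5. The tested cystatins Cst3, Cstb and Cst6 had log2 fold changes of 0.024, 0.099 and -0.39, and the libraries of each overlap between genotypes. Serpinb1a, an inhibitor of leukocyte proteases, was at 12.7, 13.7 and 8.13 TPM in wild type and at 37.1, 90.9 and 22.1 TPM in overexpression, and Serpinb6a was at 366 ± 12.4 and 428 ± 17.6 TPM (SD, n = 3 each). Of 8 markers of osteoclast-like cells, which share Ctsk and Atp6v0d2, only Nfatc1 and Itgb3 reached the level to be tested, at log2 fold changes of -0.16 and -0.11.

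**Figure D4:**
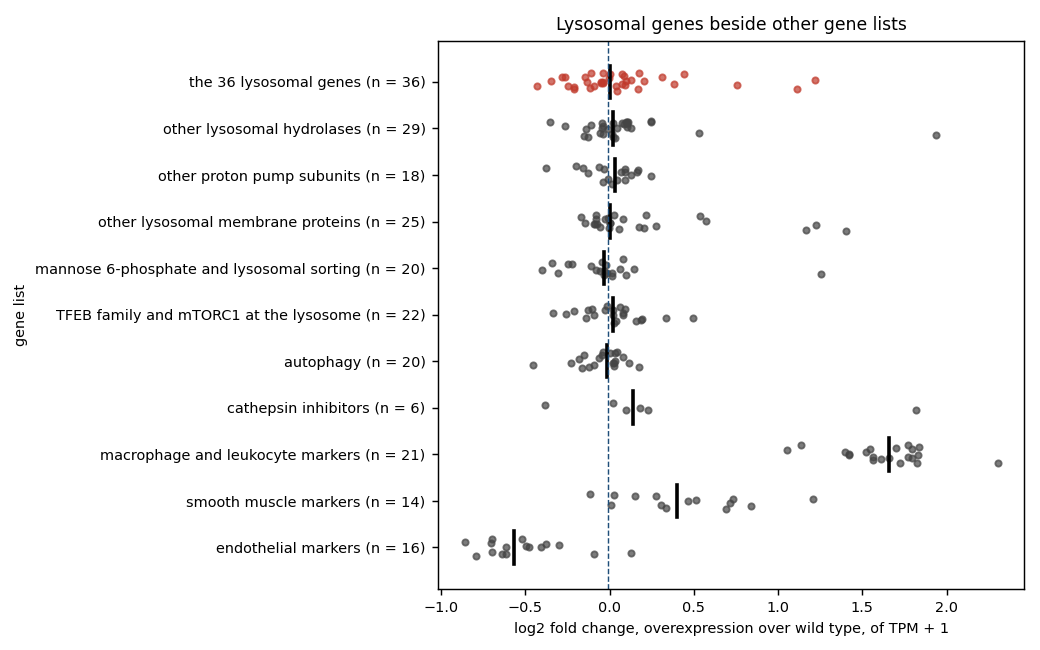
Log2 fold change of every tested gene in the 36 lysosomal genes (red) and in 10 other lists, with a thick bar at each list's median and a dashed line at the median of all genes tested (-0.0090). Other hydrolases, membrane proteins and sorting genes have single genes far to the right, such as Ctss at 1.94, the autophagy genes end at 0.18 and the other pump subunits at 0.25, while the macrophage list has a median of 1.66 and the endothelial list -0.57.

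For the TFEB family, the chromatin data give motif scores. The authors' deposited table holds a mean footprint score per motif, drawn from transposase cutting at and around its sites. The 2 ATAC-seq mice of each genotype were pooled, so there is no replicate error. In the authors' deposited table the TFEB motif scored 0.248 in wild type and 0.241 in overexpression, with 13.2% (95% Wilson interval 12.7% to 13.7%) and 12.6% (12.1% to 13.1%) of 16297 sites called bound. Its change in the authors' deposited table, signed here so that positive is higher in overexpression, was -0.030, with TFE3 at -0.020, TFEC at -0.055 and MITF at 0.044. The median over the 879 motifs of the authors' deposited table was 0.11, so these 4 motifs, which share 1 motif cluster, lay below the middle of the list. Intervals cover counting error only.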

How the data were processed

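RNA was measured in 3 wild-type and 3 Adamts7 overexpression libraries, grouped by the genotype label. For overexpression RNA the sample title starts with WT although the genotype label reads overexpression. All carry 1 batch label. The authors deposited TPM per gene, named as kallisto output per the labels. The submitters' processing notes name build mm10. Read number, kallisto version and transcript annotation are not stated in those sources. Because TPM are shares of a total, a difference in abundant genes shifts the others. The authors' deposited footprint table holds, per the file headers, a mean score, counts of motif sites and of bound sites, and a p-value per motif over pooled mice, with replicates merged per the labels.

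Genes averaging 1 TPM or more over the 6 libraries entered limma 3.58.1 (R 4.3.3) as log2(TPM + 1), fitted with lmFit and a trended eBayes (two-sided, Benjamini-Hochberg adjustment over all genes tested, threshold 0.05). The fit was tested on simulated data. Gene positions and promoters came from RefSeq tables of GRCm38.p6. The members and gene lists were chosen with earlier results of these data known. Named with values in every library are, in each role, the 2 genes highest in level and the 3 lowest in p (all in roles of 5 or fewer). From the other lysosomal lists the top gene by level and up to 2 by p are named, by library or as means. The same rule was written for the marker lists, which are given as sums, medians and counts. Other genes were named after their values were seen.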

Additional observations from a re-analysis of the deposited data

How the results depend on the processing

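Alternatives were a pseudocount of 0.1, no filter, a mean of at least 5 TPM, quantile normalization, median-of-ratios scaling, library quality weights, no variance trend, a replicate block and leaving out each library. The count of genes called by limma, 2 in all, was 1 with a mean of at least 5 TPM, 1 with the replicate block, 2728 with quality weights and between 1 and 828 when a library was left out, the highest without overexpression replicate 3. The count of members called, 0, was 12 with quality weights and between 0 and 6 when a library was left out. Members at an unadjusted p under 0.05 numbered 10, 20 with quality weights, and 8 to 15 with a library left out. Over all genes tested that count moved as well. It was 2560 of 13131, 4921 with quality weights, and 1687 to 3373 with a library left out. The members' median log2 fold change, 0.00040, was 0.098 with quality weights and -0.043 to 0.070 with a library left out. The replicate numbers do not pair the mice. Same-numbered libraries had correlations of their deviations from the group means of -0.022, 0.058 and 0.018. Not every library correlated best with its own number. With the block 0 members were called and 9 had an unadjusted limma p under 0.05, beside 2530 of the 13131 genes tested.

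Of the 36 members, 28 kept their direction in every alternative run. Ctsd turned to -0.15 under quantile normalization, Smpd1 to 0.012 there and to 0.0085 under median-of-ratios scaling, and Ctsl, Man2b1 and Sgsh to 0.045, 0.090 and 0.11 with quality weights. With a library left out, the values that turned for at least 1 library ran from -0.049 to 0.058 for Ctsd, from -0.0055 to 0.095 for Hexa, from -0.056 to 0.14 for Neu1, from -0.15 to 0.043 for Man2b1, from -0.12 to 0.045 for Ids, from -0.24 to 0.096 for Sgsh and from -0.039 to 0.018 for Smpd1. The cause was not tested. Depth is unknown, and 3 libraries per genotype limit the precision.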
